A study of Mus musculus with 4 samples.

Results

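The translation initiation factors are the proteins that bring an mRNA, the initiator tRNA and the ribosomal subunits together at a start codon. They were followed here as 43 genes, chosen by gene symbol, among the 47445 gene identifiers of each deposited table. All 43 were present, with 1 row per gene. The study injected C57BL/6N mouse embryos, obtained from 8-week-old females, with an siRNA against Uqcc3, whose product helps to assemble respiratory complex III in mitochondria. Polyadenylated RNA was amplified from embryos at the late 2-cell stage, when the zygotic genome is becoming active, in 2 Uqcc3 siRNA libraries and 2 control libraries. Per the labels' protocols, the siRNA was given at 5 µM and 8 hpi, and the controls received a negative-control siRNA at that dose and time. Their own treatment label reads "none", so it remains unclear whether the controls were injected. Only embryos of normal morphology were collected, and the sources used here do not give how many embryos each library holds. Nothing in the labels says that the libraries of a group came from separate females or days, so a p-value here covers the spread among these 4 libraries and no more, and that spread can be technical.

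In textbook outline, eIF4E binds the cap of the mRNA, eIF4G bridges it to the helicase eIF4A and to eIF3 on the small ribosomal subunit, and the assembly is called eIF4F. eIF2 delivers the initiator tRNA, eIF1 and eIF1A hold the scanning ribosome open until a start codon is met, and eIF5, eIF5B and the exchange factor eIF2B complete and reset the cycle. The 4E-binding proteins compete with eIF4G for eIF4E. In oocytes and early embryos, where stored maternal mRNAs are translated before and during genome activation, these factors help to set which messages are read, and Eif4e1b encodes an eIF4E relative found mainly in the oocyte.

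The implied depth was 11200000 and 11500000 fragments in siRNA replicates 1 and 2, against 16200000 and 18100000 in control replicates 1 and 2. The library of siRNA replicate 2 stood apart from the rest. It had 9771 genes at 1 FPKM or more (a fragment count divided by transcript length and by library size), against 12073 in siRNA replicate 1 and 12202 and 11818 in the controls. Across genes, Pearson correlations of its log2 values with the other libraries were 0.624 to 0.651, where each other library reached 0.872 or 0.875 with its closest neighbour. Uqcc3 itself stood at 23.7 and 19.8 FPKM in the siRNA libraries, against 147 and 211 FPKM in the controls, with no overlap, and did not pass the test over all genes (limma adjusted p = 0.745). Markers of the 2-cell stage summed to 674 and 185 FPKM in siRNA replicates 1 and 2 and to 1110 and 1388 FPKM in the controls, with 5 or 6 of the 7 listed genes at 1 FPKM or more in each library. Maternal oocyte markers were all detected and summed to 416 and 415 FPKM with siRNA and to 398 and 362 FPKM in the controls. Summed markers of cumulus and granulosa cells reached 4.33 and 0.247 FPKM with siRNA and 0.554 and 0.0357 FPKM in the controls. Of the 7 listed, 6 were under 1 FPKM everywhere, Amh and Fshr among them at 0 in all 4 libraries. The remaining 1 reached 1 FPKM or more in siRNA replicate 1 only. Sperm markers summed to 17.7 and 0.191 FPKM with siRNA and to 7.25 and 2.11 FPKM in the controls, and blood markers to 22.0 and 8.88 FPKM against 26.3 and 28.5 FPKM. Blastocyst lineage markers summed to 9.16 and 0.0881 FPKM with siRNA and to 2.12 and 10.3 FPKM in the controls. Of the 6 listed, 4 were under 1 FPKM everywhere, Cdx2, Krt8 and Sox17 among them at 0. At 1 FPKM or more were 2 and 0 in siRNA replicates 1 and 2 and 1 in each control. The 2-cell marker level was lowest in the library that stands apart, and its part in the results below was not tested.

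No initiation factor passed the test between siRNA and control embryos, and the siRNA libraries differed in where they placed these genes. In siRNA replicate 1, 34 of the 42 tested initiation factors (81.0%) lay below both controls and 2 above, where 48.3% and 20.6% of all tested genes did so. In siRNA replicate 2, 18 lay below both controls and 19 above, where 50.5% and 32.0% of all tested genes did so. In 14 of the 42 genes (33.3%) siRNA replicate 1 lay below and siRNA replicate 2 above both controls, against 13.3% of all tested genes. These 14 were Eif1, Eif2s2, Eif2b4, Eif2b5, Eif3b, Eif3d, Eif3f, Eif3j1, Eif4a3, Eif4e3, Eif4g1, Eif4h, Eif5b and Eif6, and 0 initiation factors showed the opposite order, against 8.46% of all tested genes. In 17 initiation factors both siRNA values lay under both controls (background 30.0% of all tested genes) and in 2 above both (background 8.60%). Of these 2, Eif4ebp2 reached 1 FPKM only in the siRNA libraries and was tested through them alone. Without Eif4ebp2, 1 lay above both controls in both siRNA libraries, 1 in siRNA replicate 1 and 18 in siRNA replicate 2.

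FPKM gives a gene's share of its library and not an amount per embryo, so fewer cells of a type and less of a transcript per cell cannot be told apart. The test was limma on log2(FPKM + 1) over the 12390 genes that reached 1 FPKM in 2 or more libraries, and fold changes on this scale understate those of low genes. With Benjamini-Hochberg adjustment, 0 of 12390 genes passed 0.05 (0%), and 0 of the 42 initiation factors. In the same limma fit, an unadjusted p under 0.05 was found for 5 initiation factors, 4 lower and 1 higher with siRNA, against 5.96% of all tested genes (5.21% lower and 0.743% higher). The 1 higher gene was Eif4ebp2, which passed the filter only through the siRNA libraries where it is high, so that without it 4 were found, 0 of them higher. Eif2s3x reached 1 FPKM only in siRNA replicate 2 and was not tested. The median log2 difference of the tested initiation factors was -0.47, beside -0.39 for all tested genes, and it was -0.58 without Eif4ebp2. For siRNA replicate 1 alone the median was -0.79 and for siRNA replicate 2 alone 0.26, beside -0.30 and -0.57 for all tested genes. With siRNA replicate 1 left out, so that only siRNA replicate 2 meets the controls, 7 initiation factors passed in limma, namely Eif2b1, Eif3e, Eif4e1b, Eif3i, Eif4g1, Eif4e and Eif2s1, beside 1477 genes (11.9%) in all. Leaving out siRNA replicate 2, the limma count was 0 of 42 (0% of all genes passed), with an unadjusted p under 0.05 in 10 (8.14% of all tested genes).

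**Figure D1:**
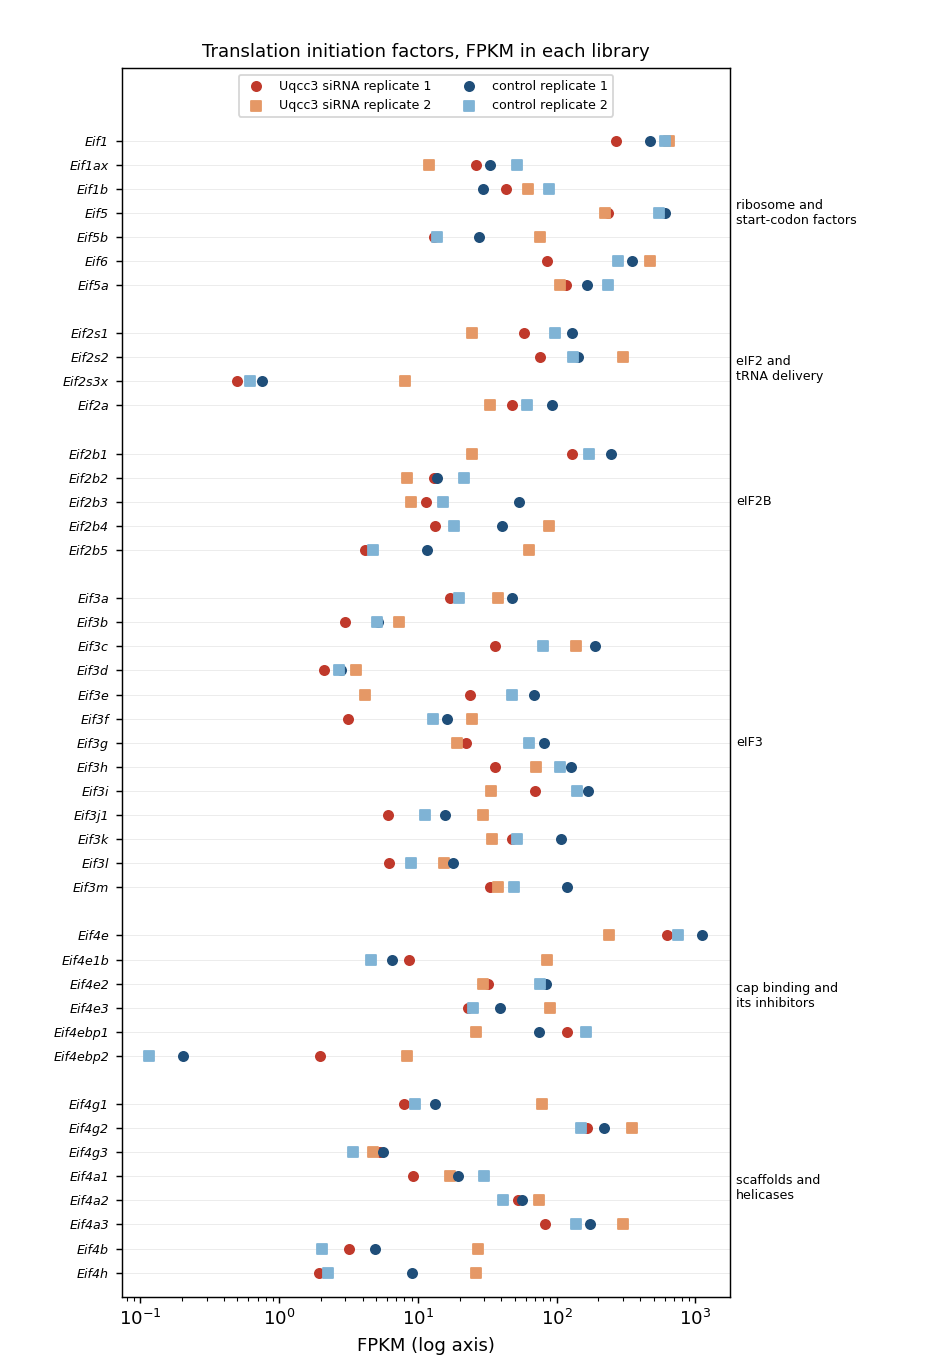
FPKM of the 43 translation initiation factor genes (log axis) in the 2 Uqcc3 siRNA libraries (red circle, orange square) and the 2 control libraries (dark circle, light square), grouped by role, with 1 point per library. Eif4e reached the highest control levels, at 1124 and 744 FPKM, and Eif4ebp2 the lowest, at 0.203 and 0.116 FPKM.

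The controls differed from each other as well. Control replicate 1 stood above control replicate 2 in 35 of the 42 tested initiation factors, all 13 eIF3 subunits among them. The share of all tested genes in this order was not counted, so it cannot be said whether the order is particular to these genes. Over all tested genes the median log2 difference from the control mean was 0.05 in control replicate 1 and -0.05 in control replicate 2. Replicate 2 of the siRNA group stood above its replicate 1 in 26 of the 42 (46.4% of all tested genes). Together the 43 genes took 0.434% and 0.906% of summed FPKM in siRNA replicates 1 and 2 and 0.762% and 0.622% in control replicates 1 and 2. The siRNA libraries thus lay on either side of both controls in this share.

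**Figure D2:**
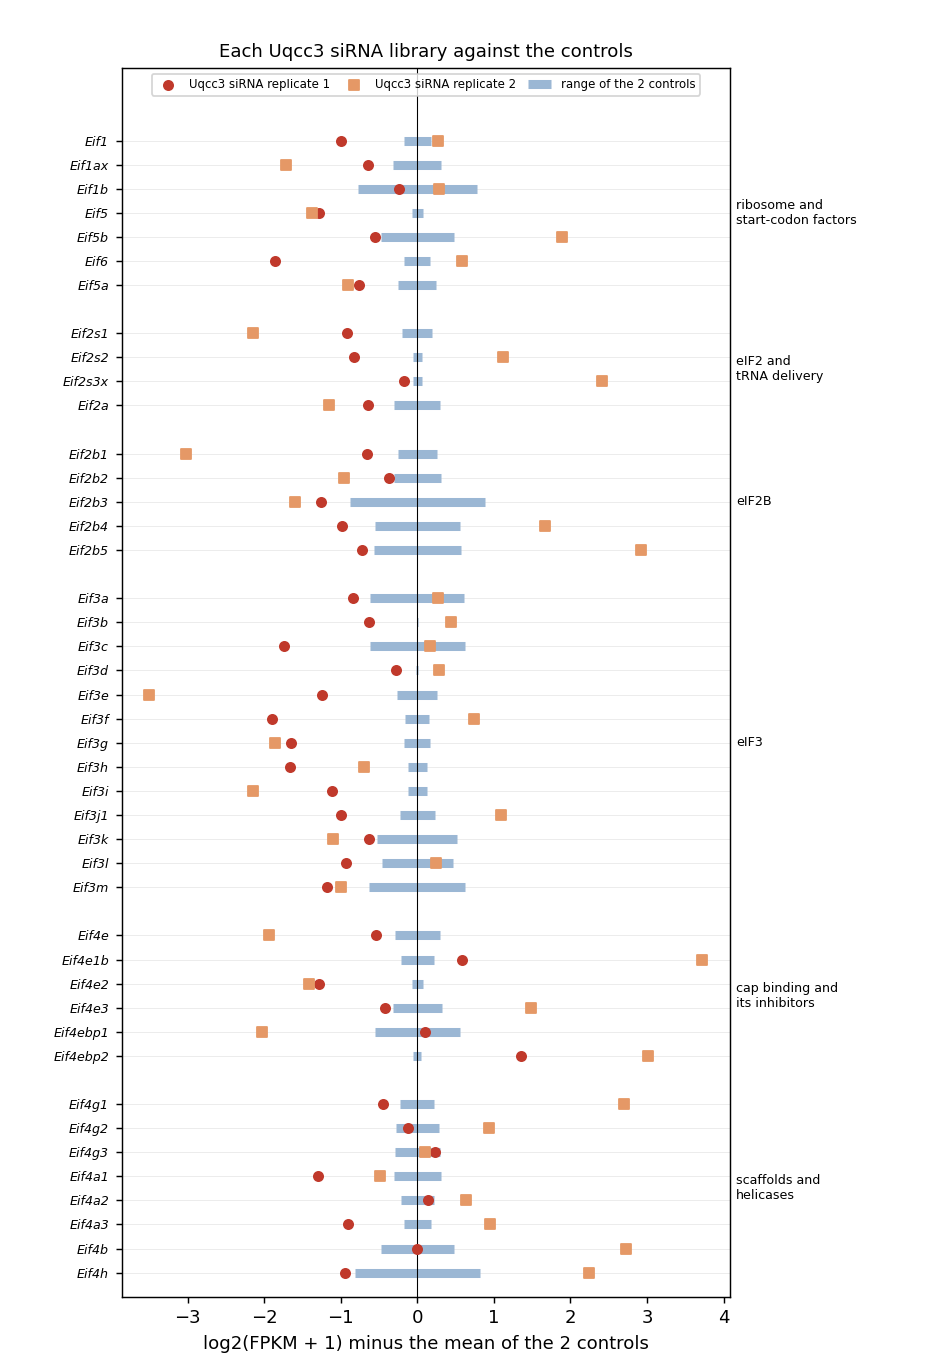
Difference of each Uqcc3 siRNA library from the mean of the controls on the log2(FPKM + 1) scale, for the 43 genes by role, with siRNA replicate 1 as red circles, siRNA replicate 2 as orange squares and the range of the 2 controls as blue bars. All 13 eIF3 subunits lay left of the bar in siRNA replicate 1, whereas siRNA replicate 2 spread to both sides.

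Among the factors that bind the ribosome and select the start codon, Eif5 (chr12:111538016-111546752, plus strand, mm10), the GTPase-activating protein of eIF2, stood at 236 and 222 FPKM with siRNA, against 605 and 548 FPKM in controls. Both siRNA libraries lay at like distances, at 40.9% and 38.5% of the control mean, and the groups did not overlap. The mean was 229 ± 9.74 FPKM with siRNA and 576 ± 40.1 FPKM in controls (SD, n = 2 each), with a log2 difference of -1.33 (SE 0.57, limma adjusted p = 0.745). Under quantile normalization that difference was -0.69. Eif5a, a ribosome-binding factor now known mostly for its role in elongation, stood at 116 and 105 FPKM with siRNA and at 166 and 235 FPKM in controls, again without overlap. Eif1ax, which keeps the scanning ribosome open, stood at 26.4 and 12.0 FPKM with siRNA and at 33.3 and 52.0 FPKM in controls. It was the lower of the siRNA values that came from the library that stands apart.

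In the other members of this group the siRNA and control values overlapped. Eif1, which guards against initiation at wrong codons, stood at 267 and 642 FPKM in siRNA replicates 1 and 2, against 472 and 602 FPKM in the controls. The siRNA libraries of Eif1 enclosed both controls. Its paralog Eif1b stood at 43.3 and 62.5 FPKM with siRNA and at 29.4 and 88.8 FPKM in controls, so that there the controls enclosed the siRNA values. The log2 ratio of Eif1b over Eif1 within a library was -2.60 and -3.34 with siRNA and -3.96 and -2.75 in controls. The groups overlapped in this ratio (difference 0.39, exact two-sided permutation p = 0.667), and the difference was -0.22 without control replicate 1. Eif6, which keeps the large ribosomal subunit from joining too early, stood at 85.3 and 469 FPKM with siRNA, against 351 and 278 FPKM in controls. Eif5b, the GTPase of subunit joining, likewise lay below both controls in siRNA replicate 1 and above both in siRNA replicate 2.

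Of the eIF2 subunits, Eif2s1 encodes the alpha subunit that stress kinases phosphorylate to slow initiation. It stood at 58.4 and 24.4 FPKM with siRNA and at 128 and 97.1 FPKM in controls. Both siRNA values lay under the controls, with means of 41.4 ± 24.0 and 112 ± 21.8 FPKM (SD, n = 2 each) and a log2 difference of -1.53 (SE 0.70, limma adjusted p = 0.745). The difference was -0.92 without siRNA replicate 2 and -2.15 without siRNA replicate 1. Eif2s2, the beta subunit, lay above both controls in siRNA replicate 2, with 76.5 and 299 FPKM in siRNA replicates 1 and 2, against 143 and 131 FPKM in the controls. Eif2s3x, the X-linked gamma subunit, stood far below its partners at 0.498 and 8.01 FPKM with siRNA and at 0.758 and 0.615 FPKM in controls. Its Y-linked copy Eif2s3y stood at 3.06 and 0.635 FPKM with siRNA, against 16.7 and 0 FPKM in controls, and reads from such near-identical copies can be split between them. Eif2s2 and Eif2s3x were picked here after their values were seen. Eif2a, a separate protein that can deliver initiator tRNA, stood at 47.7 and 33.2 FPKM with siRNA, against 92.5 and 60.7 FPKM in controls. The groups of Eif2a did not overlap, and its exons share bases with those of Serp1 on the other strand.

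eIF2B, the exchange factor that recharges eIF2 with GTP, is built from 5 kinds of subunit, of which 3 had both siRNA values under both controls (background 30.0%). After scaling, Eif2b3 kept this order each time, Eif2b1 did so except with quantile normalization, and Eif2b2 did not. Eif2b1, the alpha subunit, stood at 130 and 24.5 FPKM with siRNA and at 245 and 172 FPKM in controls. Its values were 62.2% and 11.7% of the control mean, so most of the distance came from siRNA replicate 2. The mean was 77.0 ± 74.3 FPKM with siRNA and 208 ± 51.3 FPKM in controls (SD, n = 2 each), and the log2 difference was -1.84 (SE 0.85, limma adjusted p = 0.745). Without siRNA replicate 2 that difference was -0.66 in limma. Eif2b2 stood at 13.1 and 8.36 FPKM with siRNA and at 13.7 and 21.6 FPKM in controls, and Eif2b3 at 11.4 and 8.85 FPKM against 53.8 and 15.1 FPKM. Both keep the groups apart only narrowly. Eif2b4 and the catalytic subunit Eif2b5 lay below both controls in siRNA replicate 1 and above both in siRNA replicate 2.

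All 13 eIF3 subunits lay below both controls in siRNA replicate 1, where 48.3% of all tested genes did so. The median log2 difference of the subunits was -1.11 there and 0.16 in siRNA replicate 2, beside -0.30 and -0.57 for all tested genes. In siRNA replicate 2, 6 of the 13 lay below both controls (background 50.5%), 4 above (background 32.0%) and 3 between. With FPKM as deposited, this was close to the shares of all tested genes. After rescaling to TPM (each library brought to the same total), median-of-ratios scaling or quantile normalization, 12, 10 and 11 of the 13 still lay below both controls in siRNA replicate 1 (background 39.4%, 33.1% and 35.8%). None of the 13 lay above both controls in siRNA replicate 1 under any of these scalings. In siRNA replicate 2, 3, 6 and 6 lay below both controls under these scalings (background 40.5%, 45.6% and 39.6%). Above both controls there lay 7, 6 and 6 (background 42.4%, 37.7% and 41.2%).

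Eif3g (chr9:20894349-20898623, minus strand, mm10), an RNA-binding subunit, stood at 22.2 and 19.1 FPKM with siRNA and at 80.9 and 63.7 FPKM in controls. It had the smallest limma p of all the initiation factors, with means of 20.6 ± 2.18 and 72.3 ± 12.2 FPKM (SD, n = 2 each) and a log2 difference of -1.75 (SE 0.66, adjusted p = 0.745). Both siRNA libraries were close to each other, at 30.7% and 26.4% of the control mean. Eif3i, a scaffold-like subunit of WD repeats, stood at 70.2 and 33.7 FPKM with siRNA and at 167 and 140 FPKM in controls. No overlap was seen between these values, with means of 51.9 ± 25.8 FPKM with siRNA and 154 ± 19.0 FPKM in controls (SD, n = 2 each), and the log2 difference was -1.63 (SE 0.66, limma adjusted p = 0.745). Eif3e stood at 23.7 and 4.16 FPKM with siRNA, against 68.9 and 47.8 FPKM in controls. The mean was 13.9 ± 13.8 FPKM with siRNA and 58.3 ± 14.9 FPKM in controls (SD, n = 2 each), with a log2 difference of -2.37 (SE 0.91, limma adjusted p = 0.745). That difference was -1.24 without siRNA replicate 2 and -3.50 without siRNA replicate 1 in limma. Eif3e has processed copies, and the deposited row Eif3s6-ps2, named after an older symbol of Eif3e, had listed values of 0 with siRNA, each time, and of 12.0 and 19.3 FPKM in controls. Reads can be split between such copies, so both values are uncertain.

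Eif3h, Eif3k and Eif3m complete the eIF3 subunits whose groups did not overlap. Eif3h stood at 35.7 and 71.2 FPKM with siRNA and at 126 and 106 FPKM in controls. Eif3k stood at 47.6 and 34.1 FPKM with siRNA, against 107 and 51.4 FPKM in controls. Eif3m stood at 33.2 and 37.9 FPKM with siRNA, against 119 and 49.3 FPKM in controls. In Eif3k and Eif3m the spread between the controls was wider than the distance to the siRNA values. Transcript levels of the eIF3 subunits, per length, were far from equal within every library. Eif3d was the lowest of the 13 in each of the 4 libraries, at 2.09 and 3.56 FPKM with siRNA and 2.77 and 2.71 FPKM in controls. The highest was Eif3i or Eif3c, and the highest subunit exceeded the lowest 33.6-fold and 38.7-fold in siRNA replicates 1 and 2 and 68.2-fold and 51.8-fold in control replicates 1 and 2. Eif3j1 has a near-identical copy, Eif3j2, which stood at 17.2 and 60.5 FPKM with siRNA and at 38.0 and 25.0 FPKM in controls. The rows of this pair followed the same order over the 4 libraries, and reads may be split between them.

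Eif4e, which encodes the main cap-binding protein, had the highest mean level of the 43 genes (683 FPKM over the 4 libraries), ahead of Eif1 (496 FPKM), Eif5 (403 FPKM), Eif6 (296 FPKM), Eif4g2 (221 FPKM) and Eif4a3 (173 FPKM). Their ranges over libraries overlapped from each gene to the next in this order. Eif4e stood at 628 and 237 FPKM with siRNA and at 1124 and 744 FPKM in controls, without overlap (433 ± 277 and 934 ± 269 FPKM, SD, n = 2 each). After median-of-ratios scaling or quantile normalization the groups of Eif4e overlapped. Eif4e2, a cap-binding relative tied to translational repression, stood at 32.2 and 29.4 FPKM with siRNA and at 84.0 and 75.8 FPKM in controls. Each pair was tight, and the groups of Eif4e2 did not overlap under any of the scalings above. Eif4e3, a further relative, lay below both controls in siRNA replicate 1 and above both in siRNA replicate 2.

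Eif4e1b (chr13:54783998-54788459, plus strand, mm10), the oocyte form, stood at 8.70 and 84.7 FPKM in siRNA replicates 1 and 2, against 6.51 and 4.60 FPKM in the controls. Both siRNA libraries lay above both controls, but siRNA replicate 1 only by a small step. The mean was 46.7 ± 53.8 FPKM with siRNA and 5.55 ± 1.35 FPKM in controls (SD, n = 2 each), with a log2 difference of 2.15 (SE 1.13, limma adjusted p = 0.745). Without siRNA replicate 2 that difference was 0.58 in limma, and without siRNA replicate 1 it was 3.72. Its share of the combined Eif4e and Eif4e1b level was 1.37% and 26.4% with siRNA and 0.575% and 0.615% in controls. The log2 ratio of Eif4e1b over Eif4e was -6.02 and -1.47 with siRNA and -7.23 and -7.05 in controls, a difference of 3.40 (exact two-sided permutation p = 0.33, the smallest that 2 against 2 allows, and 0.67 adjusted over the 4 ratios compared). The difference was 1.12 without siRNA replicate 2 and 5.67 without siRNA replicate 1. The summed maternal oocyte markers stood at 416 and 415 FPKM with siRNA and 398 and 362 FPKM in controls, as deposited and without further scaling. Any link between these markers and Eif4e1b was not tested.

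Of the inhibitors, Eif4ebp1 stood at 118 and 26.1 FPKM with siRNA and at 74.1 and 162 FPKM in controls, so the groups overlapped. Eif4ebp2 was nearly undetected in controls, at 0.203 and 0.116 FPKM with 4 and 2 implied fragments, and stood at 1.96 and 8.37 FPKM with siRNA, with 37 and 158 implied fragments. Its siRNA libraries lay above both controls, with a log2 difference of 2.18 (SE 0.89, limma adjusted p = 0.745). Since it entered the test through the siRNA values alone, this is given as a value only, and it was 4.03 with a pseudocount of 0.1 and 1.35 without siRNA replicate 2. The log2 ratio of both inhibitors over Eif4e plus Eif4e1b was -2.40 and -3.18 with siRNA and -3.91 and -2.20 in controls. These overlapped, with a difference of 0.26 (exact two-sided permutation p = 1) that was -0.13 without siRNA replicate 1 and -0.59 without control replicate 1.

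**Figure D3:**
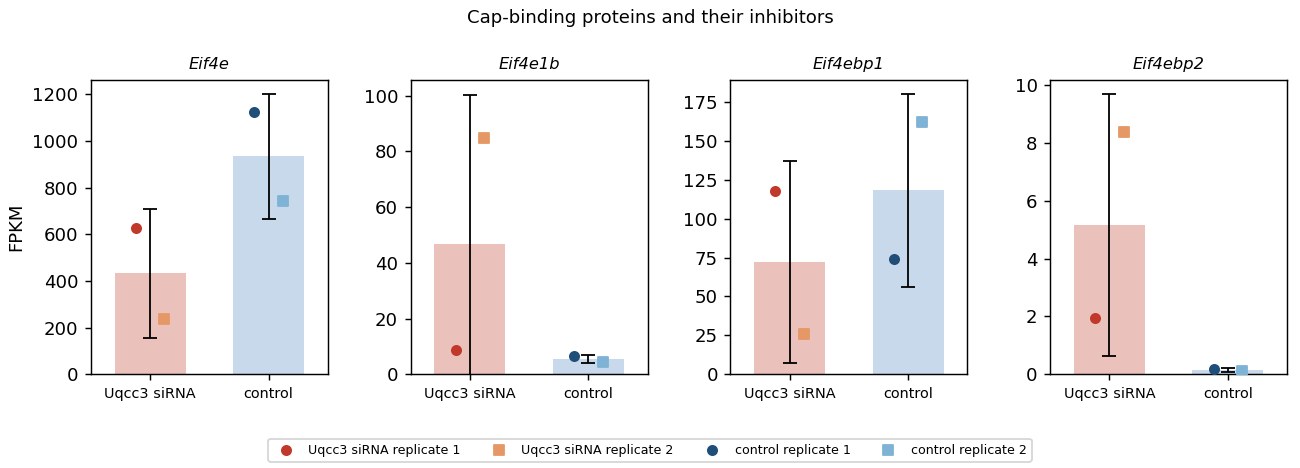
FPKM of the cap-binding genes Eif4e and Eif4e1b and of the inhibitor genes Eif4ebp1 and Eif4ebp2, with Uqcc3 siRNA libraries left and controls right, 1 point per library, bars for the mean and error bars for the SD (n = 2 each, those reaching below 0 clipped at the axis). The high Eif4e1b value of 84.7 FPKM came from siRNA replicate 2 alone.

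Among scaffolds and helicases only Eif4a1, the main helicase of eIF4F, kept both siRNA libraries below both controls. It stood at 9.20 and 17.0 FPKM with siRNA and at 19.3 and 30.1 FPKM in controls, and the groups overlapped after each of the 3 scalings used above. Its paralog Eif4a2 stood at 53.0 and 75.1 FPKM with siRNA and at 56.2 and 41.3 FPKM in controls, where the groups overlapped. The log2 ratio of Eif4a1 over Eif4a2 within a library was -2.40 and -2.08 with siRNA and -1.49 and -0.44 in controls. Both siRNA libraries lay below both controls in this ratio (difference -1.27, exact two-sided permutation p = 0.33, the smallest possible, adjusted p = 0.67). It was -0.75 without control replicate 2 and -1.80 without control replicate 1. Reads of these paralogs and of their copies, such as the deposited row Eif4a-ps4, can be split between rows, and Eif4a2 also hosts small nucleolar RNA genes in its span.

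Of the 8 scaffolds and helicases, 6 lay above both controls in siRNA replicate 2 (32.0% of all tested genes) and 1 below (50.5%), with Eif4g3 between the controls. In siRNA replicate 1, 4 lay below (48.3%) and 0 above (20.6%). Under TPM, median-of-ratios and quantile scaling 7 of 8 lay above in siRNA replicate 2 each time (background 42.4%, 37.7% and 41.2%) and 0 below. In siRNA replicate 1, 3, 2 and 3 then lay below and 2, 3 and 3 above (background 39.4%, 33.1% and 35.8% below and 27.6%, 35.6% and 33.6% above). The median log2 difference of the group was 0.94 there and -0.29 in siRNA replicate 1, beside -0.57 and -0.30 for all tested genes. Eif4g1, the central scaffold, stood at 7.99 and 78.5 FPKM with siRNA and at 13.3 and 9.52 FPKM in controls. It is named here after its values were seen. Eif4g2, a scaffold that lacks the eIF4E-binding part, stood at 166 and 349 FPKM with siRNA and at 221 and 149 FPKM in controls. Eif4a3, the helicase of the exon junction complex, stood at 82.0 and 299 FPKM with siRNA and at 175 and 137 FPKM in controls. The siRNA values enclosed both controls in Eif4g1 and Eif4a3, while in Eif4g2 the lower siRNA value lay between them. The helicase cofactors Eif4b and Eif4h reached 26.9 and 26.1 FPKM in siRNA replicate 2, with the other 3 libraries between 1.95 and 9.04 FPKM.

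The 3 core genes of eIF4F, Eif4e, Eif4g1 and Eif4a1, are known as targets of the transcription factor Myc, which binds the E-box CACGTG. Their promoter windows are printed because each of these genes, which differed in their order over the libraries, has a window that holds this motif. The windows run from 250 bases before to 50 bases after a RefSeq start in GRCm38.p6, the build that mm10 corresponds to, 5′ to 3′ on the gene's strand, with each CACGTG in capitals. For Eif4e the downstream of its 2 listed starts is shown (chr3:138527018-138527317, plus strand). The window of its other start (chr3:138525941-138526240, plus strand) holds 0 matches of CACGTG and is not shown. For Eif4g1 its only listed start is shown (chr16:20672477-20672776, plus strand) and for Eif4a1 likewise (chr11:69672374-69672673, minus strand).
Eif4e: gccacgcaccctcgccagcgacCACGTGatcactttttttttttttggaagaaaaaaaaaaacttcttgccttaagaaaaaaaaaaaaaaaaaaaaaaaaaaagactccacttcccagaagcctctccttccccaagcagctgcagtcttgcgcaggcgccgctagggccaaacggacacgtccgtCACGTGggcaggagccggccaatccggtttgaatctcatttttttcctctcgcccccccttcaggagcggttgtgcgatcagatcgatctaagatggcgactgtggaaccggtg
Eif4g1: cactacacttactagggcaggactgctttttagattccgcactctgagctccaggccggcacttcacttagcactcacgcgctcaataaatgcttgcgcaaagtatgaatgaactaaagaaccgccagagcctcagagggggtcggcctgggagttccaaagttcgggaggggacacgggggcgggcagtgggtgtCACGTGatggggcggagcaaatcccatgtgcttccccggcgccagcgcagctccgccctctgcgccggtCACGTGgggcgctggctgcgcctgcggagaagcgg
Eif4a1: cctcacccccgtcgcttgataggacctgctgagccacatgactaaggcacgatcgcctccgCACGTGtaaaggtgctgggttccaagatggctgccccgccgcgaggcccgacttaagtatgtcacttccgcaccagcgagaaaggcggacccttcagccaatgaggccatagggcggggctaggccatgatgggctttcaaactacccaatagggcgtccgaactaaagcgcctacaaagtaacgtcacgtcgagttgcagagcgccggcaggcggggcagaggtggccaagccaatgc
RefSeq windows were matched for 34 of the 43 genes, in 43 windows of 300 bases. CACGTG, which reads alike on both strands, was found in 11 of the 43 windows, against 7.15% of all 32851 windows. The 11 windows belong to 9 of the 34 genes. Besides the genes shown these were Eif1b, Eif3a, Eif3f, Eif3k, Eif4h and Eif5a, and windows of 1 gene with several starts can overlap. An ETS-type motif, CCGGAAGT on either strand, was found in 8 of the 43 windows (3.89% of all windows). These belong to 6 of the 34 genes, with overlapping windows of Eif4e2 among them. The palindromic NRF1 consensus was found in 1 of the 43 windows, that of Eif3k (0.971% of all windows). No match of a motif overlapped another in these windows. A match describes letters in a window and was not tested for a link with any level.

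How far these counts depend on the scaling is seen in the plot of positions by scaling. Under median-of-ratios and quantile scaling, 21 and 22 of 42 initiation factors lay below both controls in siRNA replicate 1 (background 33.1% and 35.8%), and after rescaling to TPM 29 of 43 (background 39.4%). Above both controls in siRNA replicate 1 lay 4, 5 and 6 genes under TPM, median-of-ratios and quantile scaling (background 27.6%, 35.6% and 33.6%), and 1 with a filter at 5 FPKM (background 17.1%). In siRNA replicate 2, 25, 22 and 22 lay above both controls (background 42.4%, 37.7% and 41.2%). The order with siRNA replicate 1 below and siRNA replicate 2 above both controls held in 14, 9 and 12 (background 14.9%, 10.2% and 12.7%). Under TPM, median-of-ratios and quantile scaling, 12 of 43, 10 of 42 and 9 of 42 had both siRNA libraries below both controls. The background was 20.6%, 19.6% and 18.7% of all tested genes. All of these genes were among the 17 with this order as deposited. Eif2b2, Eif3k and Eif4a1 lost it under all 3, Eif1ax, Eif2a, Eif4e and Eif5a under the last 2, Eif3h and Eif3m only under TPM and Eif2b1 only under quantile scaling. Eif2s1, Eif2b3, Eif3e, Eif3g, Eif3i, Eif4e2 and Eif5 kept it under all 3, and Eif4e1b and Eif4ebp2 stayed above both controls under all 3. Counted with Eif4a2, Eif4g3 and, except under TPM, Eif4g2, which then joined them, 4, 5 and 5 genes lay above (background 13.8%, 16.4% and 16.5%), and with a filter at 5 FPKM 1 did (background 6.95%). The 4, 5 and 5 include Eif4ebp2, which entered the test through its siRNA values alone. Scaling moved the median of all genes from -0.39 to -0.07 under TPM, -0.09 under median-of-ratios and 0.01 under quantile scaling, and that of the initiation factors from -0.47 to 0.06, -0.11 and -0.05.

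**Figure D4:**
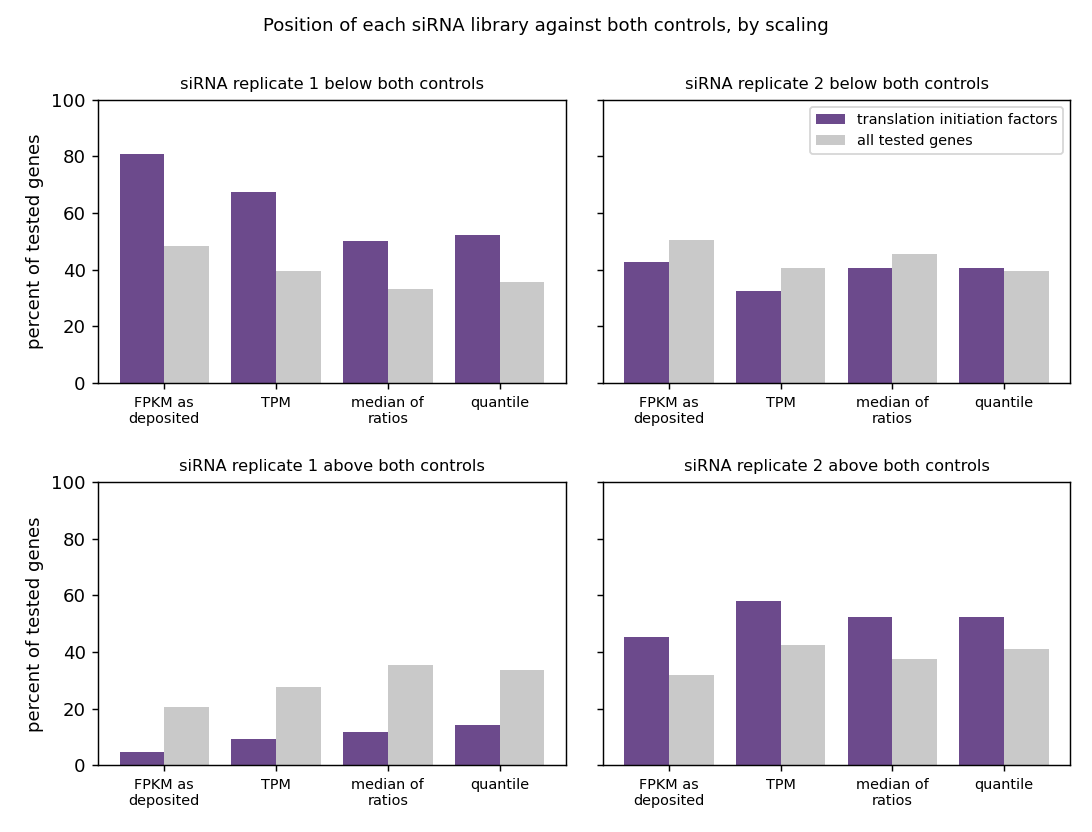
Percent of tested translation initiation factors (purple) and of all tested genes (grey) that lay below (upper row) or above (lower row) both controls in siRNA replicate 1 (left) and siRNA replicate 2 (right), for FPKM as deposited and under 3 scalings. The share of initiation factors below both controls in siRNA replicate 1 was 81.0% as deposited and 50.0% with median-of-ratios scaling, above the grey bar in each case.

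Gene length and base composition were set beside these differences as a description across genes, which share libraries and are not independent. Over the 42 tested initiation factors, siRNA replicate 2 minus siRNA replicate 1 had a Pearson r of 0.39 with GC content and 0.06 with log2 transcript length (Spearman rho 0.37 and 0.08). Over 12352 tested genes the same Pearson values were 0.12 and 0.30 (rho 0.12 and 0.31). For siRNA replicate 1 minus the control mean, Pearson r with log2 length was 0.30 over the initiation factors and -0.0084 over the 12352 genes. For siRNA replicate 2 minus the control mean these were 0.17 and 0.30. Between control replicates 1 and 2 they were 0.30 and 0.08. With GC content, r over the initiation factors was 0.03, 0.37 and -0.09 in the same order. The part of length and composition in the results was not tested. Of the 43 genes 15 share exon bases with another annotated gene on either strand, and the sources used here do not say whether counting used the strand.

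Regulators of initiation that are not among the 43 genes were read from a list of 34, of which 31 were tested. None passed in limma (0% of all tested genes did), 3 had an unadjusted p under 0.05 (5.96% of all tested genes), all lower with siRNA, and the median log2 difference was -0.02, beside -0.39 for all tested genes. Below both controls in both siRNA libraries lay 8 (background 30.0%) and above 3 (background 8.60%), shares close to those of all tested genes. Eif2d, a factor that delivers tRNA independently of eIF2, stood at 5.29 and 0.0843 FPKM with siRNA and at 19.3 and 23.0 FPKM in controls (log2 difference -3.08, SE 1.12). Paip2, an inhibitor of the poly(A)-binding protein, stood at 133 and 57.9 FPKM with siRNA, against 272 and 241 FPKM in controls (log2 difference -1.53, SE 0.65). Rps6kb1, a kinase downstream of mTOR that acts on eIF4B and other targets, stood at 79.3 and 90.0 FPKM with siRNA, against 197 and 242 FPKM in controls (log2 difference -1.36, SE 0.59). Mcts2, a relative of the reinitiation factor Mcts1, stood at 90.3 and 25.5 FPKM with siRNA, against 156 and 138 FPKM in controls (log2 difference -1.59, SE 0.75). The adjusted p in limma was 0.745 for each of these 4 genes, and their groups did not overlap. Without siRNA replicate 2 the log2 differences of Eif2d, Paip2 and Mcts2 were -1.81, -0.94 and -0.70. Without siRNA replicate 1 they were -4.35, -2.12 and -2.48. Rps6kb1 was at -0.84 under quantile normalization. Mcts1 stood at 10.2 and 102 FPKM with siRNA, against 16.2 and 25.8 FPKM in controls. Whether reads were split between the rows of Mcts1 and Mcts2 was not tested.

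Elongation and termination factors were read from a list of 15, of which 13 were tested, and none passed in limma. The median log2 difference was -0.02, beside -0.39 for all tested genes, with 2 genes below (background 30.0%) and 1 above both controls (background 8.60%) in both siRNA libraries. Eef1e1, a cofactor of tRNA synthetases, stood at 51.1 and 12.1 FPKM with siRNA, against 65.6 and 54.1 FPKM in controls. Eef1d, a subunit of the elongation exchange factor, stood at 26.5 and 60.3 FPKM with siRNA, against 65.5 and 95.3 FPKM in controls. Eef2k, the kinase that inhibits eEF2, stood at 5.66 and 12.7 FPKM with siRNA, against 3.80 and 2.36 FPKM in controls. Eefsec, the selenocysteine elongation factor, overlapped between groups at 3.37 and 1.11 FPKM with siRNA and 12.2 and 2.80 FPKM in controls. The log2 differences of these 4 were -1.22, -0.96, 1.25 and -1.23 in the order given, and single libraries moved each of them. Without siRNA replicate 2 they were -0.22, -1.54, 0.73 and -0.70 in the same order. Without siRNA replicate 1, Eef1e1 was at -2.21 and Eef1d at -0.39. Eefsec was at -0.33 without control replicate 1 and at -2.12 without control replicate 2. Scaling moved Eef1e1 to -0.81 under TPM, Eefsec to -0.68 under quantile normalization and Eef1d to between -0.58 and -0.52 under the 3 scalings.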

How the data were processed

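Polyadenylated RNA of 2 Uqcc3 siRNA and 2 control libraries was measured, grouped by treatment label and numbered in accession order. For each library the authors deposited FPKM values with lower and upper bounds, per the file headers. Cufflinks 2.2.1 and Cuffdiff 2.2.1, STAR 2.7.3a, Trim Galore 0.6.5, SAMtools 1.7 and mm10 are listed in the submitters' processing notes. The sources used here do not name the annotation release. Rows of one gene identifier were summed, and 2 genes marked as failed were left out. Genes reaching 1 FPKM in 2 or more libraries were tested two-sided, with an abundance trend, on log2(FPKM + 1) by limma 3.58.1 in R 4.3.3, with Benjamini-Hochberg adjustment over all tested genes and a threshold of 0.05. The script was checked on simulated data. Within-library ratios were compared by exact permutation.

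Implied fragments are the squared ratio of FPKM to its error, taken from the distance to the upper bound. They cover counting error only and understate genes with several transcripts, which 42 of the 43 have. Implied depth is the median over genes with 1 transcript of at least 1000 bases in GENCODE M21 that have at least 10 implied fragments. Gene positions are those of M21, and transcript length and GC content refer to its longest transcript.

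The 43 genes and the lists were chosen with earlier results of these data known. Values per library are given for genes without overlap between groups, the 6 highest, and Eif4e1b, Eif4e, Eif4ebp1, Eif4ebp2, Eif4a1, Eif4a2, Eif1, Eif1b and Eif2s1. Fold changes are given for the 6 per direction with the smallest p among genes without overlap, and values for the 4 genes per further list with the smallest p. Alternatives were the pseudocount, filter, scaling, trend and leaving out each library.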

Additional observations from a re-analysis of the deposited data

How the results depend on the processing

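No paired analysis was possible because the labels carry no replicate numbers. With 2 libraries per group, 1 library can decide a value. The count of initiation factors past the limma threshold was 0 to 7 on leaving out a library, and that of all genes 0 to 1477. For regulators of initiation it was 0 to 5, and for elongation and termination factors 0 to 1. The upper value came each time on leaving out siRNA replicate 1. There 1 siRNA library meets the controls, and the spread within groups comes from the controls alone. Initiation factors with both siRNA libraries below both controls numbered 17. Those above numbered 2, with Eif4ebp2, which entered the test through its siRNA values alone, among them here and below. Leaving out a library loosens this condition, so the counts could only hold or rise. Without siRNA replicate 1, 18 lay below and 19 above both controls (50.5% and 32.0% of all tested genes). Without siRNA replicate 2, 34 lay below and 2 above (48.3% and 20.6%). There 1 siRNA library alone was placed. Without control replicate 1, 19 lay below and 6 above (41.9% and 20.1%). Without control replicate 2, 21 lay below and 3 above (44.2% and 16.4%). Median-of-ratios scaling gave 10 below and 5 above, quantile normalization 9 and 5, TPM 4 above and a filter at 5 FPKM 1 above. The median of the initiation factors minus that of all genes was -0.08, and -0.49 to 0.83 on leaving out a library.

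Positions of single libraries under other settings were added after seeing the data. Below both controls in siRNA replicate 1 lay 21 (median-of-ratios) and 22 (quantile), against 34. Above lay 1 with the 5 FPKM filter, against 2, and 4, 5 and 6 under TPM, median-of-ratios and quantile scaling. On leaving out control replicate 1, 6 lay above the remaining control (14.3%, against 37.8% of all tested genes). On leaving out control replicate 2, 4 did so (9.52%, against 34.1% of all tested genes). Below in siRNA replicate 1 and above in siRNA replicate 2 lay 9 with median-of-ratios scaling, against 14. Without a control, siRNA replicate 1 lay below in 36 to 38 (62.0% and 65.7% of all genes without control replicates 1 and 2), siRNA replicate 2 below in 19 to 22 (58.0% and 60.5%) and above in 20 to 23 (40.5% and 38.1%), and 17 were split in either case (20.2% and 21.4%).

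The Eif4e1b ratio ranged from 1.12 to 5.67, that of Eif4a1 from -1.80 to -0.75, that of Eif1b from -0.22 to 0.99 and that of the inhibitors from -0.59 to 1.12 on leaving out a library. The ratio of Eif1b reversed without control replicate 1 (-0.22), and that of the inhibitors without siRNA replicate 1 (-0.13) and control replicate 1 (-0.59). The cause was not tested in any case. At this depth Eif4ebp2 rests on 4 and 2 implied fragments in the controls.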
